A study of Danio rerio with 8 samples.

Results

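Collagens, laminins, fibronectins and integrins, the proteins that build the extracellular matrix and the receptors that hold cells to it, are described here in pineal complex cells of zebrafish embryos with and without knockdown of tbx2b. Members were taken by name from the authors' table of differential expression: rows whose symbol starts with col, a number and a, with lama, lamb or lamc and a number, with fn1, with itga, or with itgb and a number, without col2a1a and col8a1a, and with a completed test. These were 68 of 18954 tested genes. They comprise 32 collagen rows, 11 laminin rows, 2 fibronectin genes and 21 integrin rows, and 2 rows that share only the start of their name. These last are col4a3bpa, which encodes a ceramide transfer protein, and itgb1bp1, which encodes a cytoplasmic protein that binds an integrin tail. They are left out of the classes below. A further 13 rows matched by name but were not tested by the authors, and none of these exceeded 0.322 FPKM in the knockdown or 0.315 FPKM in wild-type.

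RNA was sequenced from 8 libraries of cells sorted from heads of Tg(flhBAC:kaede)vu376 embryos at 24 to 26 hours post-fertilization, a line in which regulatory sequence of the homeobox gene flh drives the fluorescent protein Kaede. Knockdown embryos, with 4 libraries, had received a splice morpholino (an antisense oligonucleotide that blocks splicing) against tbx2b, at 5 ng for 2 libraries and at 6 ng for 2. Wild-type embryos, also with 4 libraries, carried the same transgene and were not injected, so injection and loss of Tbx2b cannot be told apart. The labels pair the libraries as technical replicates, which leaves 2 pairs per group, and in the knockdown the RNA sample and the dose cannot be told apart. The table holds 1 FPKM value per gene and group, that is mapped fragments scaled for library size and transcript length. How library size was scaled is not stated. With 1 value per group, values of single libraries, their spread and their depth are unknown. All FPKM values are the authors' group values, all log2 fold changes set the knockdown over wild-type, and a gene counts as called where the authors' own test flagged it. The targeted gene tbx2b was at 18.3 FPKM in the knockdown and 17.4 FPKM in wild-type. A splice morpholino need not lower the gene's read total, so these values do not check the knockdown.

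Collagens are trimers wound from 3 alpha chains. Fibrillar collagens form the cables of connective tissue, collagen IV forms the mesh of basement membranes, and the smaller classes decorate fibrils, anchor membranes or span the cell surface. Laminins, trimers of an alpha, a beta and a gamma chain, form the sheet on which epithelia and the neural tube rest, and fibronectin is laid down by moving and boundary-forming cells. Integrins pair an alpha and a beta chain in the cell membrane, and the pair decides which of these proteins is bound. In the embryonic brain the pial basement membrane, with laminin and collagen IV, covers the basal side of the neural tube, from which the pineal complex arises.

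None of the 68 members was called. Of all tested genes, 0.106% were called higher and 0.332% lower in the knockdown, so the count of 0 among 68 lies close to what this background alone would give. Without adjustment, the authors' deposited table has a p under 0.05 for 2 members, itgb5 and col6a6, both lower in the knockdown, and for none that was higher. The background for this threshold is 3.76% lower and 1.77% higher. Among the 50 members at 1 FPKM or more in both groups, 1 was 1.5-fold or more lower, itgb5, and none was 1.5-fold or more higher, against 5.53% lower and 3.18% higher among all such genes. The matrix and its receptors therefore gave no larger share of differences than the rest of the table by any of these rules.

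The centre of the distribution was close to that of all genes. Over the 66 collagen, laminin, fibronectin and integrin rows the median log2 fold change was -0.02, with 32 above 0 and 34 below. Over all tested genes it was -0.03. The middle 50% of the 66 lay between -0.19 and 0.19, and that of all tested genes between -0.26 and 0.17. The FPKM of the groups sum to different totals, and scaling both to the same total (TPM) raises each log2 fold change by 0.106. It would put 42 of the 66 rows above 0 and move the medians to 0.09 for the members and 0.07 for all tested genes.

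**Figure D1:**
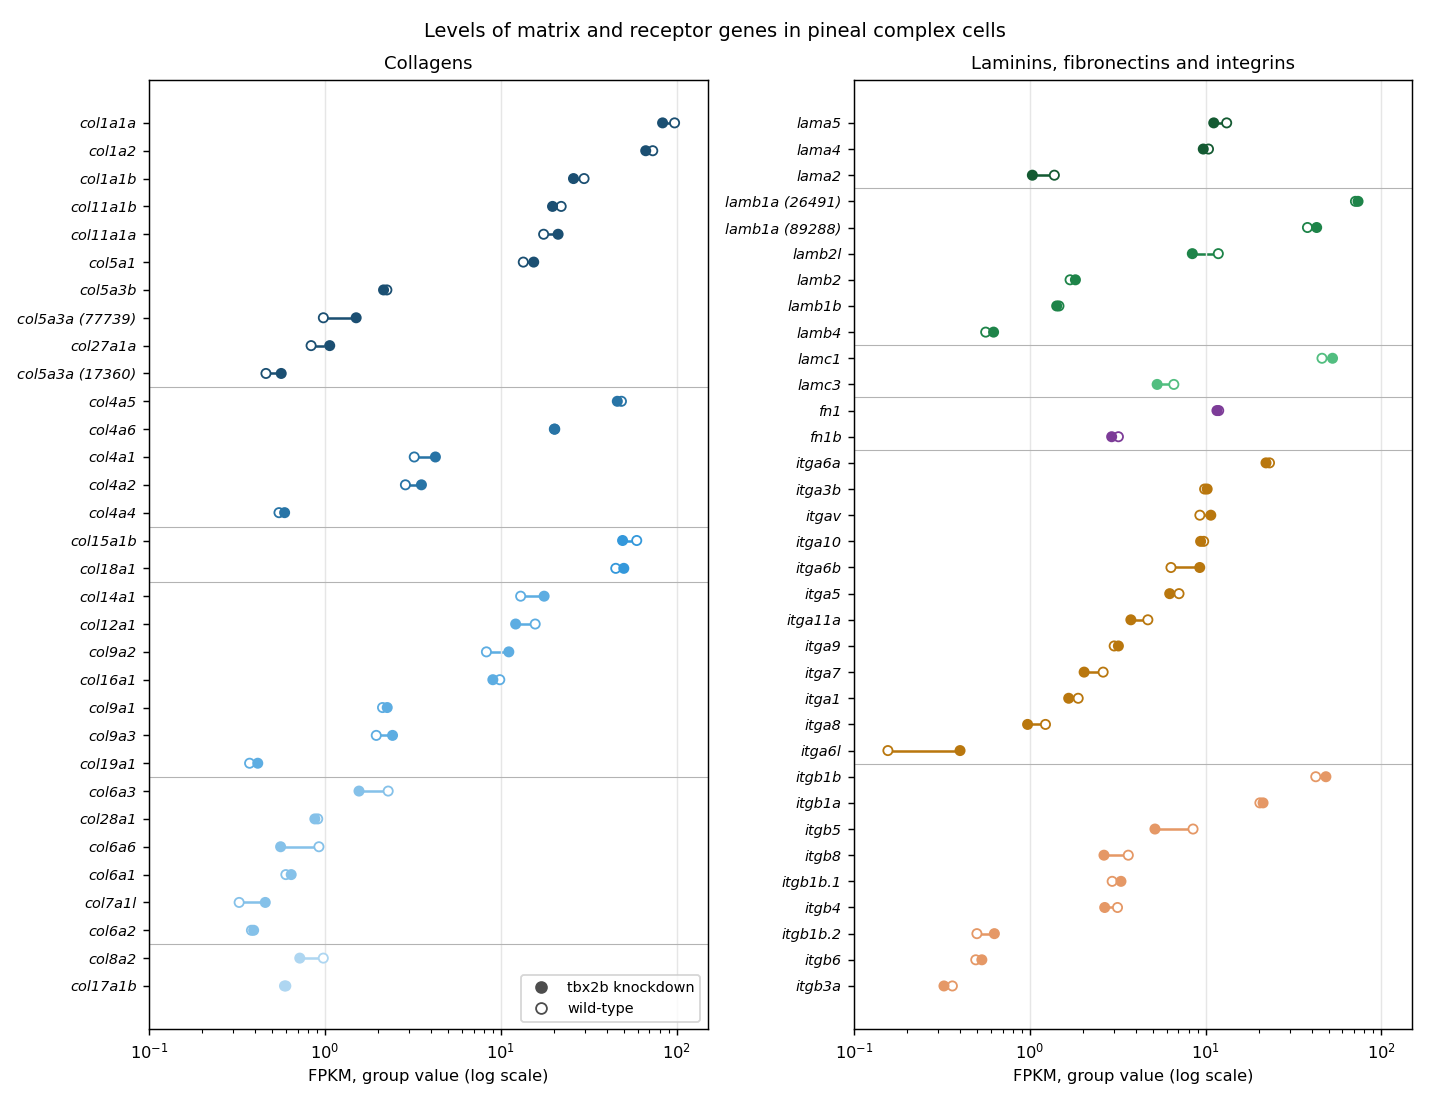
FPKM of each of the 66 rows on a log axis, with the knockdown as filled and wild-type as open points, coloured and ruled off by class and ordered by mean level; numbers in brackets are the ends of the gene identifiers where a symbol stands on 2 rows. Most paired points lie close together, with wider gaps for itgb5, col6a6 and itga6l, and levels run from col1a1a at 83.2 FPKM in the knockdown and 97.3 FPKM in wild-type to itga6l at 0.400 FPKM in the knockdown and 0.156 FPKM in wild-type.

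Fibrillar collagens made up the largest share of the collagen signal, with 50.3% of the summed collagen FPKM in the knockdown and 51.99% in wild-type. Collagen sums here cover the members only. They leave out the type II collagen rows col2a1a and COL2A1 (2 of 2), the latter annotated in capitals and so outside the name rule. Within this class the genes of type I collagen, the main fibril of skin and connective tissue, were the most abundant. Col1a1a (ENSDARG00000012405, Zv9 chromosome 3, 23512287 to 23530699) was at 83.2 FPKM in the knockdown and 97.3 FPKM in wild-type. Col1a2 was at 66.7 FPKM in the knockdown and 73.1 FPKM in wild-type. The third chain gene, col1a1b, a duplicate of col1a1a, was at 25.9 FPKM in the knockdown and 29.7 FPKM in wild-type. All 3 were slightly lower in the knockdown, by log2 fold changes from -0.23 to -0.13, and they stayed below 0 after rescaling to TPM, from -0.12 to -0.03. None was called, with a p from 0.373 to 0.559 in the authors' deposited table. The ratio of col1a1a and col1a1b together to col1a2 was 1.64 in the knockdown and 1.74 in wild-type.

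The other fibrillar collagens among the members lay on the other side of 0 in 5 of 7 rows, 2 of these being rows of col5a3a. They include the minor chains of types V and XI, which join type I or type II fibrils and set their width. Col5a1 was at 15.4 FPKM in the knockdown and 13.4 FPKM in wild-type. Of the col11a1 duplicates, col11a1a was at 21.2 FPKM in the knockdown and 17.5 FPKM in wild-type. Col11a1b was at 19.7 FPKM in the knockdown and 22.03 FPKM in wild-type. These duplicates thus changed order, col11a1a being the higher in the knockdown and col11a1b in wild-type, though neither difference was called and no test of the reversal could be run. Col5a3a stands on 2 rows, and the row ENSDARG00000077739 had the largest positive difference of the class, at 1.502 FPKM in the knockdown and 0.978 FPKM in wild-type, with p = 0.0599 in the authors' deposited table. Col5a3b was at 2.15 FPKM in the knockdown and 2.25 FPKM in wild-type. Col27a1a, a separate fibrillar type, was at 1.06 FPKM in the knockdown and 0.833 FPKM in wild-type. Further fibrillar rows, annotated in capitals and outside the name rule, lay below 0. COL27A1 (1 of 2) was at 0.343 FPKM in the knockdown and 0.528 FPKM in wild-type. COL5A2 (1 of 2) was at 0.530 FPKM in the knockdown and 0.590 FPKM in wild-type. COL2A1 (2 of 2) had a log2 fold change of -0.11. Over the 10 fibrillar members the median was 0.07, with 5 above 0 and 5 below, and over the 7 at 1 FPKM or more in both groups it was -0.13. With the fibrillar rows in capitals included, the median was -0.11.

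The collagen IV chain pairs among the members differed in level and in log2 fold change. Col4a5 and col4a6, which form the alpha 5 and alpha 6 mesh and in zebrafish guide axons along brain surfaces, were the abundant pair. Col4a5 was at 46.0 FPKM in the knockdown and 48.5 FPKM in wild-type. Col4a6 was at 20.1 FPKM in the knockdown and 20.3 FPKM in wild-type. Their log2 fold changes of -0.08 and -0.01 lie close to 0 and turn positive on rescaling to TPM. The pair found in nearly all basement membranes was far lower in level and above 0. Col4a1 was at 4.24 FPKM in the knockdown and 3.21 FPKM in wild-type, a log2 fold change of 0.40. Col4a2 was at 3.53 FPKM in the knockdown and 2.86 FPKM in wild-type, a log2 fold change of 0.30. The summed level of col4a5 and col4a6 was 8.503 times that of col4a1 and col4a2 in the knockdown and 11.3 times in wild-type. The member col4a4 was at 0.589 FPKM in the knockdown and 0.547 FPKM in wild-type. A further alpha 6 row, COL4A6, annotated in capitals and outside the name rule, was above 0, unlike col4a6. It was at 1.39 FPKM in the knockdown and 1.30 FPKM in wild-type. None of these genes was called. Vessels are rich in col4a1 and col4a2, and endothelial markers lay on the same side of 0. All 14 tested endothelial markers lay above 0, 4 of them called higher, with a summed level of 268 FPKM in the knockdown and 149 FPKM in wild-type, and none was listed at 0. The part of these cells in the collagen IV values was not tested.

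The multiplexins col15a1b and col18a1, which bridge basement membranes and the fibrils beneath them, were the other abundant collagens. Col15a1b was at 49.2 FPKM in the knockdown and 59.3 FPKM in wild-type. Col18a1, whose end fragment is endostatin, was at 50.04 FPKM in the knockdown and 45.0 FPKM in wild-type. Here too the order of the members differed between the groups, but in the knockdown their levels were nearly equal. No test of the reversal could be run. The log2 fold changes were -0.27 for col15a1b and 0.15 for col18a1, neither called. Together col15a1b and col18a1 held 21.05% of the summed collagen FPKM in the knockdown and 21.1% in wild-type.

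Among the FACIT collagens, which sit on the surface of fibrils, 5 of 7 lay above 0 and the median was 0.15. Col14a1 had the largest positive difference, at 17.6 FPKM in the knockdown and 12.96 FPKM in wild-type. Col12a1 had the largest negative one, at 12.1 FPKM in the knockdown and 15.7 FPKM in wild-type. Their log2 fold changes were 0.44 and -0.37, so these 2 rows, of genes that both bind type I fibrils, stood at opposite ends of the class. Further rows of both names, annotated in capitals and outside the name rule, lay below 0. COL14A1 (2 of 2) was at 0.631 FPKM in the knockdown and 0.980 FPKM in wild-type. COL12A1 was at 8.10 FPKM in the knockdown and 9.24 FPKM in wild-type. Col16a1 was at 9.002 FPKM in the knockdown and 9.86 FPKM in wild-type. The 3 chains of collagen IX, the partner of type II collagen in cartilage and notochord, were all above 0. Col9a2 was at 11.1 FPKM in the knockdown and 8.27 FPKM in wild-type, with p = 0.104 in the authors' deposited table. Col9a3 was at 2.42 FPKM in the knockdown and 1.96 FPKM in wild-type. Col9a1 was at 2.26 FPKM in the knockdown and 2.12 FPKM in wild-type. Notochord and floor plate markers, which include col2a1a and col8a1a, lay above 0 in 6 of 8 tested, none called, with a summed level of 138 FPKM in the knockdown and 110 FPKM in wild-type. The most abundant, shha, was at 60.7 FPKM in the knockdown and 48.3 FPKM in wild-type. The notochord gene ntla was at 0.564 FPKM in the knockdown and 0.550 FPKM in wild-type. COL2A1 (2 of 2), a type II row outside this list, lay below 0, at 34.1 FPKM in the knockdown and 36.7 FPKM in wild-type. The notochord gene cmn was listed at 0 in the knockdown and at 0.0199 FPKM in wild-type, and both rows of foxa were listed at 0 in both groups. The part of notochord cells in the collagen IX values was not tested.

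The beaded, anchoring, transmembrane and short-chain collagens were at low levels, all but col6a3 under 1 FPKM in both groups. The row named col6a6 (ENSDARG00000079752) has the current name col6a4a. Its chain can take the place of the alpha 3 chain in collagen VI microfibrils. Col6a6 was at 0.558 FPKM in the knockdown and 0.923 FPKM in wild-type, 1.65-fold lower, with p = 0.0429 and q = 0.874 in the authors' deposited table. Col6a3 was at 1.56 FPKM in the knockdown and 2.29 FPKM in wild-type. A further row named col6a3, at 0.322 FPKM in the knockdown and 0.315 FPKM in wild-type, was not tested. The chains with which these assemble differed less. Col6a1 was at 0.642 FPKM in the knockdown and 0.598 FPKM in wild-type, and col6a2 was at 0.392 FPKM in the knockdown and 0.381 FPKM in wild-type. Col7a1l, related to the anchoring fibril collagen of skin, was at 0.457 FPKM in the knockdown and 0.324 FPKM in wild-type. The short-chain collagen col8a2 was at 0.718 FPKM in the knockdown and 0.977 FPKM in wild-type. The hemidesmosome collagen col17a1b was at 0.588 FPKM in the knockdown and 0.598 FPKM in wild-type. At these levels the error is unknown, and only col6a6 had a p under 0.05.

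**Figure D2:**
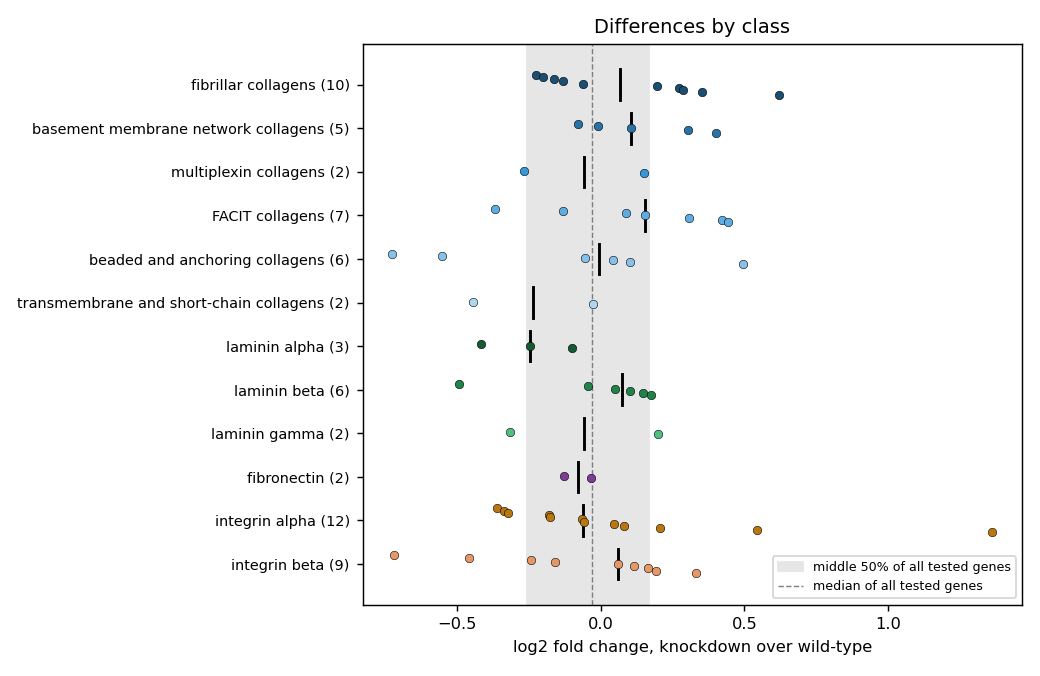
Log2 fold change of the knockdown over wild-type for each of the 66 rows, by class, with the number of rows in brackets; black bars are class medians, the grey band spans the middle 50% of all tested genes (-0.26 to 0.17) and the dashed line is their median. All 12 class medians lie inside the band, and the outermost points are itga6l at 1.36, col6a6 at -0.72 and itgb5 at -0.72.

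The laminin signal came mainly from lamb1a and lamc1, the chains that with the laminin alpha 1 chain form the first laminin of the embryo. Lamb1a stands on 2 rows of 1 locus (Zv9 chromosome 25, 32519230 to 32606949), which can share reads. The row ENSDARG00000026491 was at 73.5 FPKM in the knockdown and 71.1 FPKM in wild-type. The row ENSDARG00000089288 was at 42.8 FPKM in the knockdown and 37.9 FPKM in wild-type. Lamc1 was at 52.7 FPKM in the knockdown and 45.9 FPKM in wild-type. The alpha 1 gene, annotated in capitals as LAMA1 and so outside the name rule, was at 15.7 FPKM in the knockdown and 13.7 FPKM in wild-type. All 4 rows of this trimer were slightly higher in the knockdown, with log2 fold changes from 0.05 for the first lamb1a row to 0.20 for lamc1, and none was called. Laminin beta rows made up 61.7% of the summed FPKM of the 11 laminin members in both groups. This sum leaves out LAMA1 and holds both lamb1a rows.

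The other laminin chains lay mostly below 0 as deposited. The 3 alpha members were all lower in the knockdown, with a median of -0.24, though lama4 turns to 0.01 on rescaling to TPM. Lama5, the main alpha chain of epithelial basement membranes, was at 11.1 FPKM in the knockdown and 13.2 FPKM in wild-type. Lama4, the alpha chain of vessels, was at 9.68 FPKM in the knockdown and 10.4 FPKM in wild-type. Lama2, the alpha chain of muscle, was at 1.03 FPKM in the knockdown and 1.38 FPKM in wild-type. The log2 fold change of lama4 was -0.10 as deposited, and the endothelial markers given above had a median of 0.77. The part of vessel cells in the lama4 values was not tested. The largest difference among laminin members was that of lamb2l, at 8.39 FPKM in the knockdown and 11.8 FPKM in wild-type, a log2 fold change of -0.49 with p = 0.109 in the authors' deposited table. Its neighbour lamb2 was at 1.81 FPKM in the knockdown and 1.69 FPKM in wild-type. Lamc3 was at 5.29 FPKM in the knockdown and 6.59 FPKM in wild-type. With lamc1 above 0 and lamc3 below, the ratio of lamc1 to lamc3 was 9.95 in the knockdown and 6.96 in wild-type, a ratio chosen after the values were seen. Lamb1b, the duplicate of lamb1a, was at 1.42 FPKM in the knockdown and 1.46 FPKM in wild-type. Its log2 fold change of -0.04 turns to 0.06 on rescaling to TPM. Lamb4 was at 0.621 FPKM in the knockdown and 0.560 FPKM in wild-type.

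Both fibronectin genes had nearly the same level in the 2 groups. Fn1 was at 11.6 FPKM in the knockdown and 11.9 FPKM in wild-type. Its duplicate fn1b, whose locus is shared with atic and mnx2b, was at 2.92 FPKM in the knockdown and 3.19 FPKM in wild-type. The ratio of fn1 to fn1b was 3.97 in the knockdown and 3.72 in wild-type. The p values were 0.885 for fn1 and 0.932 for fn1b in the authors' deposited table.

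Among the receptors, the beta 1 integrins, which pair with most alpha chains, were the most abundant. Itgb1b was at 48.3 FPKM in the knockdown and 42.3 FPKM in wild-type. Itgb1a was at 21.2 FPKM in the knockdown and 20.3 FPKM in wild-type. Itgb1b.1 and itgb1b.2, tandem copies on chromosome 2, were at 3.30 and 0.628 FPKM in the knockdown, and at 2.94 and 0.499 FPKM in wild-type. All 4 rows lay above 0, with a median of 0.18, and none was called.

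Integrin alpha chains differed little in sum, with 79.8 FPKM in the knockdown and 78.9 FPKM in wild-type over 12 rows. The laminin-binding chains were the most abundant. Itga6a was at 22.03 FPKM in the knockdown and 23.1 FPKM in wild-type. Its duplicate itga6b had the largest positive difference among alpha chains at 1 FPKM or more, at 9.25 FPKM in the knockdown and 6.34 FPKM in wild-type, a log2 fold change of 0.54 with p = 0.173 in the authors' deposited table. The ratio of itga6a to itga6b was accordingly 2.38 in the knockdown and 3.64 in wild-type. Itga3b was at 10.2 FPKM in the knockdown and 9.86 FPKM in wild-type. Itga7 had the largest negative difference, at 2.03 FPKM in the knockdown and 2.61 FPKM in wild-type. The related gene itga6l showed the largest fold of any member, 2.57-fold higher, but from 0.400 FPKM in the knockdown and 0.156 FPKM in wild-type, with p = 0.113 in the authors' deposited table. A level this low carries an error that cannot be given.

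The 3 collagen-binding alpha chains among the members were lower in the knockdown, with a median of -0.18, and itga10 turns to 0.05 on rescaling to TPM. A further chain of this kind, alpha 2, has tested rows annotated in capitals and outside the name rule, which lay on both sides of 0. ITGA2 (2 of 2) was at 4.13 FPKM in the knockdown and 2.47 FPKM in wild-type, with p = 0.0827 in the authors' deposited table. ITGA2 (1 of 2) was lower in the knockdown, at 0.361 FPKM against 0.403 FPKM in wild-type. Itga11a was at 3.75 FPKM in the knockdown and 4.69 FPKM in wild-type. Itga10 was at 9.36 FPKM in the knockdown and 9.74 FPKM in wild-type. Itga1 was at 1.66 FPKM in the knockdown and 1.88 FPKM in wild-type. Of the chains that bind the RGD motif of fibronectin and related proteins, itga5, the classic fibronectin receptor, was at 6.24 FPKM in the knockdown and 7.05 FPKM in wild-type. Itgav was at 10.7 FPKM in the knockdown and 9.26 FPKM in wild-type. Itga8 was at 0.970 FPKM in the knockdown and 1.23 FPKM in wild-type. No alpha chain had a p under 0.05.

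The largest difference among members at 1 FPKM or more in both groups was that of itgb5, which pairs with the alpha v chain in a receptor for vitronectin. Itgb5 (ENSDARG00000012942, Zv9 chromosome 9, 23710847 to 23781360) was at 5.14 FPKM in the knockdown and 8.47 FPKM in wild-type, 1.65-fold lower. Its p was 0.0335, the smallest of any member, and its q 0.795 in the authors' deposited table, so it was not called. Of the 4 beta chains that pair with alpha v, itgb5 included, 3 lay below 0 and 1 above, with a median of -0.31, and none was called. Itgb8 was at 2.64 FPKM in the knockdown and 3.63 FPKM in wild-type, itgb6 was at 0.533 FPKM in the knockdown and 0.492 FPKM in wild-type, and itgb3a was at 0.324 FPKM in the knockdown and 0.362 FPKM in wild-type. With itgav above 0, the ratio of itgb5 to itgav was 0.481 in the knockdown and 0.914 in wild-type, a ratio chosen after the values were seen. Itgb4, which pairs with alpha 6 in the hemidesmosomes of the epidermis, was at 2.66 FPKM in the knockdown and 3.15 FPKM in wild-type.

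**Figure D3:**
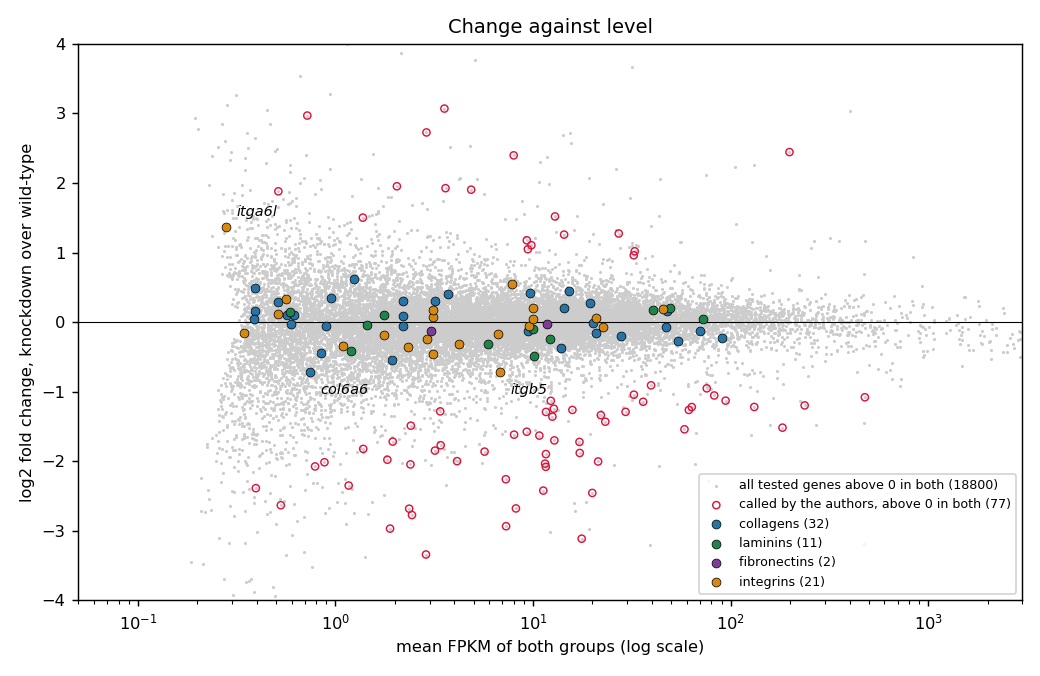
Log2 fold change of the knockdown over wild-type against the mean FPKM of both groups on a log axis, for 18800 tested genes above 0 in both groups (grey), for 77 of these called by the authors (red rings) and for the 66 matrix and receptor rows, coloured by family; 106 genes outside the axes are not drawn. The members lie within the grey cloud at every level and away from the red rings, with itgb5, col6a6 and itga6l the outermost.

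The size of the members' differences can be set beside that of the genes the authors called. At 1 FPKM or more in both groups, 56 genes were called, and the smallest of their differences was 1.88-fold, a log2 fold change of 0.91. At that level the largest difference of a matrix or receptor member was a log2 fold change of -0.72. A large difference was not enough for a call, since of 425 genes as far apart as 1.88-fold at this level 56 were called. At this level the members' differences were thus smaller than any the authors' test called, and values near 0 do not show that the genes were equal. At a mean of 10 FPKM or more, the 23 members had a median absolute log2 fold change of 0.17, against 0.15 for 6898 tested genes, and at 1 to 10 FPKM the 27 members had 0.30, against 0.22 for 8696 genes. Under 1 FPKM it was 0.16 for 16 members and 0.44 for 3206 genes. The rank order of levels was nearly kept between the groups, with a Spearman rho of 0.989 across the 66 rows and 0.962 across all tested genes, given as a description across genes, which are not replicates.

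The make-up of each family was likewise close between the groups, taken over the members only, without the rows in capitals, col2a1a and col8a1a. Collagens summed to 472 FPKM in the knockdown and 496 FPKM in wild-type. Laminins summed to 208 FPKM in the knockdown and 202 FPKM in wild-type. Integrins summed to 164 FPKM in the knockdown and 161 FPKM in wild-type. Within these sums, the share of a class in its family differed by at most 1.86 percentage points between the groups.

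**Figure D4:**
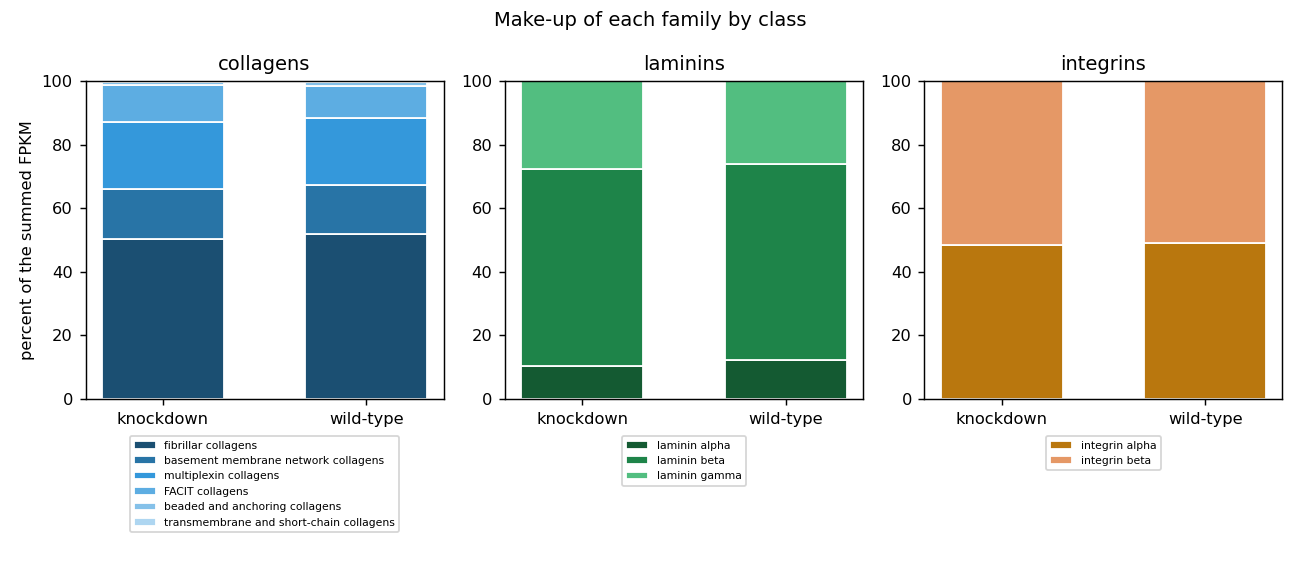
Share of each class in the summed FPKM of its family, in percent, with the knockdown as the left and wild-type as the right bar of each panel. Sums cover the members only and leave out rows outside the name rule, such as LAMA1 and the type II collagens. The bars of the groups nearly coincide: fibrillar collagens hold 50.3% in the knockdown and 51.99% in wild-type, laminin beta chains 61.7% in both, and integrin alpha chains 48.5% in the knockdown and 49.0% in wild-type.

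Several members lie next to each other in the genome. On Zv9, 8 pairs of different members stood within 200 kb, and in 6 of these both lay on the same side of 0. The pairs include col4a6 with col4a5 on chromosome 7, with log2 fold changes of -0.01 and -0.08. They also include col4a1 with col4a2 on chromosome 9, with log2 fold changes of 0.40 and 0.30, and col6a2 with col6a1 on chromosome 11, with 0.04 and 0.10. The exceptions were col9a2 with col16a1 on chromosome 19, at 0.42 and -0.13, and lamb2 with lamb2l on chromosome 23, at 0.10 and -0.49. In vertebrates collagen IV genes stand in head-to-head pairs that share a promoter. Here the annotated gap was 1.09 kb between col4a6 and col4a5, and 57.1 kb between col4a1 and col4a2. The part of shared promoters in these values was not tested. No test of likeness between neighbours was run, and the share for neighbouring genes outside the members was not computed.

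Genes that act with the members gave no call either. Of all tested genes 0.106% were called higher and 0.332% lower, so counts of 0 in lists of this size lie close to that background. Of 15 tested basement membrane partners none was called, with a median of -0.07. The most abundant was sparc, a collagen-binding glycoprotein, at 354 FPKM in the knockdown and 431 FPKM in wild-type. Of 30 tested genes that modify, fold or cross-link collagen none was called, with a median of 0.10, and the most abundant, the proline isomerase gene ppib, was at 605 FPKM in the knockdown and 591 FPKM in wild-type. None of 18 tested genes of the adhesion machinery beneath integrins was called, with a median of 0.02. Its most abundant member was flna, an actin cross-linker, at 61.9 FPKM in the knockdown and 63.1 FPKM in wild-type. None of 12 other matrix receptors was called, with a median of 0.03, and the heparan sulphate proteoglycan gene sdc4 was the most abundant at 332 FPKM in the knockdown and 357 FPKM in wild-type. Of 29 other matrix glycoproteins none was called, and the median was 0.05. The most abundant, mfap2 of elastic microfibrils, was at 76.2 FPKM in the knockdown and 74.0 FPKM in wild-type. The versican gene vcanb, at 3.74 FPKM in the knockdown and 2.36 FPKM in wild-type, had p = 0.0227 in the authors' deposited table. In the same list 2 genes under 1 FPKM were lower with p under 0.05. The background for this threshold over all tested genes is 3.76% lower and 1.77% higher. The thrombospondin gene thbs4b was at 0.197 FPKM in the knockdown and 0.571 FPKM in wild-type, with p = 0.00935 in the authors' deposited table. The brevican gene bcan was at 0.284 FPKM in the knockdown and 0.686 FPKM in wild-type, with p = 0.0484 in the authors' deposited table. After rescaling to TPM the median of the basement membrane partners would lie above 0.

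**Figure D5:**
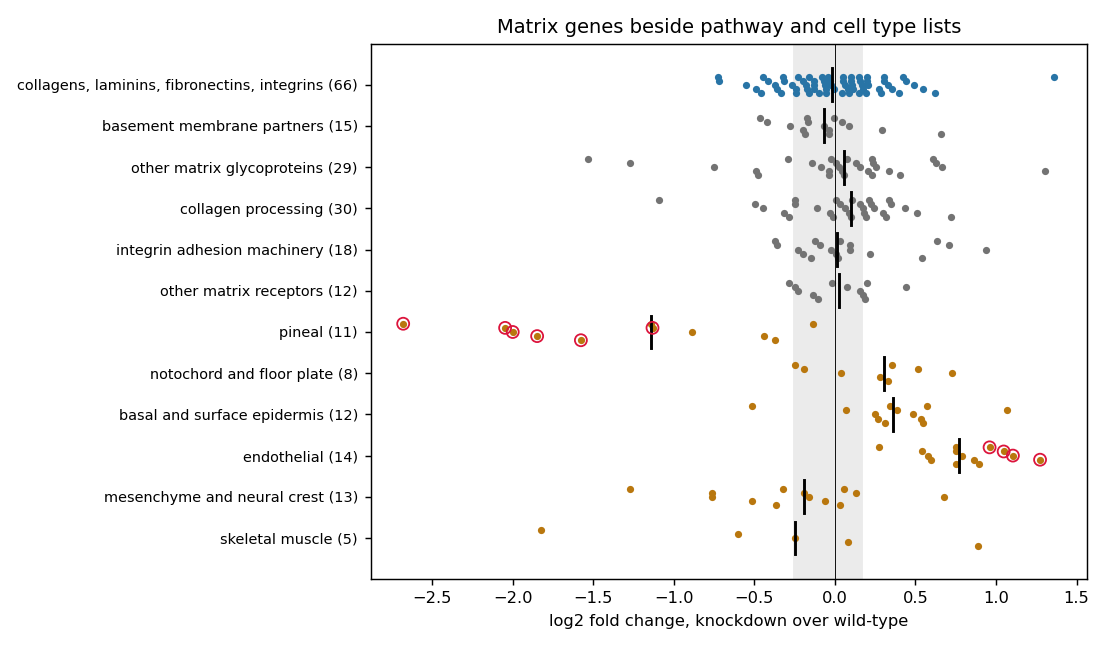
Log2 fold change of the knockdown over wild-type for the members (blue), for lists of matrix partners (grey) and for cell type marker lists (brown), with the number of genes in brackets; black bars are medians, red rings mark genes called by the authors and the grey band spans the middle 50% of all tested genes. Red rings stand in the pineal list, all below 0, and in the endothelial list, all above 0, while the members and the 5 lists of matrix partners have none.

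Of the marker lists for cell types that a sort of embryonic heads can hold, only the pineal and endothelial lists held called genes. The background over all tested genes is 0.106% called higher and 0.332% called lower. For an unadjusted p under 0.05 in the authors' deposited table it is 1.77% higher and 3.76% lower. No matrix member was called. The lists were chosen with earlier results of these data known. Of 11 tested pineal markers all lay below 0 and 6 were called lower, with a summed level of 161 FPKM in the knockdown and 320 FPKM in wild-type. In such bulk values, fewer cells of a type and less RNA per cell cannot be told apart. Epidermis markers lay above 0 in 11 of 12, none called, with a summed level of 1268 FPKM in the knockdown and 999 FPKM in wild-type. Only cyt1l, which was higher, had a p under 0.05, at 0.0323 in the authors' deposited table. Mesenchyme and neural crest markers lay below 0 in 9 of 13, none called, with a summed level of 151 FPKM in the knockdown and 187 FPKM in wild-type. In the authors' deposited table p was 0.00615 for twist1a, 0.0314 for foxc1b and 0.0494 for snai1b, all lower. None that was higher had a p under 0.05. Of 12 muscle markers 5 were tested, the most abundant being mylz3 at 5.75 FPKM in the knockdown and 8.74 FPKM in wild-type. The regulator myod1 was at 0.2435 FPKM in the knockdown and 0.865 FPKM in wild-type. Its p was 0.00425 in the authors' deposited table, the only one under 0.05 in this list, and it was not called. The muscle regulator myog was listed at 0 in both groups, and the tested muscle markers summed to 14.5 FPKM in the knockdown and 16.7 FPKM in wild-type. The median log2 fold change was 0.36 for epidermis markers and -0.19 for mesenchyme and neural crest markers. The type I collagen genes, none called, lay between -0.23 and -0.13. The part of these cells in the members' values was not tested.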

How the data were processed

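RNA from sorted zebrafish pineal complex cells was profiled in 8 libraries. The submitters' processing notes name the Zv9 build and the tools Cuffdiff, TopHat2, Bowtie2, Trimmomatic 0.32, FastQC 0.10.0 and CASAVA 1.8.2. Settings, annotation and how technical replicates entered the test are not given in the sources. Per the file headers, the authors deposited 1 FPKM value per gene and group, a log2 fold change, a test score, and a p-value and q-value for each gene. FPKM depends on the other RNAs sampled, and values set across genes are per length.

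Log2 fold changes, sums, medians and counts were computed with Python 3.11.15 and pandas 2.3.3. The counts and medians were tested on simulated data. The deposited q differed by at most 5.2e-07 from a Benjamini-Hochberg adjustment over all 18954 tested genes. Calls are the authors' flag; no test across libraries was possible on group values. Members, classes and gene lists were chosen with earlier results of these data known. Named genes are, per class, the 2 most abundant, the largest difference in each direction at 1 FPKM or more, any with an unadjusted p under 0.05, and their partners and duplicates; other members were named besides. Of the members, 17 share their locus with another row, mostly a 5S ribosomal RNA, and col5a3a and lamb1a stand on 2 rows each. Current names were found for 58 of 68 gene identifiers. Of 172 listed matrix partners 133 were matched by symbol or identifier, and of 78 cell type markers 71; the others are not analysed here. Whether starts count from 0 or 1 is not stated. Alternatives were another name match, scaling, pseudocount, thresholds and minimum level.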

Additional observations from a re-analysis of the deposited data

How the results depend on the processing

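The count of called members was 0 in each direction under every alternative run. Only a name match in either case and a deposited q under 0.1 could have given another count. Further runs left out itgb1bp1, that row with col4a3bpa (chosen after seeing the data), or rows that share a locus. Leaving rows out cannot add a call, and at a deposited q under 0.01 no gene passes, the smallest q being 0.01755. The count of members 1.5-fold or more higher was 0, but 1 with a name match in either case, 1 rescaled to TPM and 2 with no minimum level. The count lower was 1, but 2 with no minimum and 0 at 2-fold. With no minimum and both directions together, 1.5-fold was passed by 5.83% of all tested genes at a mean of 10 FPKM or more. It was passed by 13.9% at 1 to 10 FPKM and by 39.1% under 1 FPKM. The shares of the 66 rows were 0%, 7.41% and 12.5%. Shares of all genes rescaled to TPM or at 2-fold were not computed. With members of 1 FPKM or more in both groups, the fibrillar median turned to -0.13 and that of beaded and anchoring collagens moved to -0.55, since 1 gene, col6a3, then remains. Other class medians moved by less than 0.18, the median absolute deviation of all genes at 1 FPKM or more, used in place of a replicate spread. Of 90 alternative medians 13 changed sign, 6 of them on rescaling to TPM, which raises every median by 0.106. No paired analysis was possible because the table holds 1 value per group; for the same reason no library could be left out.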

Other observations

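A further 25 rows carry human-style names in capitals and lie outside the name rule, 20 of them tested and none called. The background over all tested genes is 0.106% called higher and 0.332% called lower. For an unadjusted p under 0.05 in the authors' deposited table it is 1.77% higher and 3.76% lower. Besides LAMA1, they include ITGB2, the beta chain of leukocyte integrins, at 1.14 FPKM in the knockdown and 0.502 FPKM in wild-type, with p = 0.00775 and q = 0.426 in the authors' deposited table, the 1 row of the 20 with a p under 0.05. ITGA4, a receptor chain for fibronectin and for a vessel wall adhesion protein, was at 3.34 FPKM in the knockdown and 4.68 FPKM in wild-type. The row COL2A1 (2 of 2), a type II collagen gene, was at 34.1 FPKM in the knockdown and 36.7 FPKM in wild-type, and col2a1a, left out by name, was at 23.8 FPKM in the knockdown and 19.6 FPKM in wild-type. Transmembrane collagen rows named COL23A1 were both lower, at 4.45 and 0.995 FPKM in the knockdown and at 5.94 and 1.65 FPKM in wild-type. The median log2 fold change of the 20 tested rows was -0.16.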
